A study of Mus musculus with 10 samples.

Results

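The 5 genes described here are the adult α-globin copies Hba-a1 and Hba-a2, the adult β-globin copies Hbb-bs and Hbb-bt, and Alas2, out of 22380 genes quantified by RNA-seq in sorted germinal center B cells. They were chosen by an earlier comparison of these same libraries, as adult globin and erythroid genes that were higher in ZBTB38 KO than in control libraries, so their KO-to-control differences are given below as a description and without a test. All 5 were found by symbol. Because the copies are nearly identical, Hba-a1 and Hba-a2 were also summed to Hba, and Hbb-bs and Hbb-bt to Hbb, which left 3 values.

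The 10 libraries came from C57Bl6/N mice immunized with the hapten-protein conjugate NP-OVA, whose hapten-binding GL7+ IgD- spleen B cells were sorted. The 2 ZBTB38 WT libraries were Zbtb38fl/fl without Cre, the 2 ZBTB38 HET libraries were Zbtb38fl/+ x Vav-Cre, and the 6 ZBTB38 KO libraries were Zbtb38fl/fl x Vav-Cre. WT and HET together are called controls. Vav-Cre acts mainly across blood cells and not in B cells alone. WT carried no Cre, so the effect of Cre and that of Zbtb38 loss cannot be told apart between WT and KO. Splenocyte preparation included lysis of erythrocytes and a density gradient before the sort. Ages and sexes are not given in the sources used here. The study counts replicates as mice, and p-values measure the spread between these samples, which may also be technical.

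Hemoglobin is a tetramer of α-like and β-like globin chains, each holding a heme group. The globin genes are transcribed at very high levels in erythroblasts, where GATA1, KLF1 and their partners act at the α and β clusters, and reticulocytes still carry much globin mRNA after they lose the nucleus. ALAS2 is the erythroid form of the enzyme that starts heme synthesis in mitochondria, and ALAS1 is the form used by other cells. Germinal center B cells are not known for making hemoglobin.

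In GRCm38, Hba-a1 (ENSMUSG00000069919.7) lies on the plus strand of chr11:32283511-32284465 and Hba-a2 (ENSMUSG00000069917.7) on the plus strand of chr11:32296489-32297298. On the minus strand, Hbb-bt (ENSMUSG00000073940.3) lies at chr7:103812524-103813996 and Hbb-bs (ENSMUSG00000052305.6) at chr7:103826534-103828096. Alas2 (ENSMUSG00000025270.13) lies on the plus strand of chrX:150547375-150570638. The copies are so alike that reads within their coding sequence can seldom be assigned to one of them. Hba-a1 and Hba-a2 differed at 1 of 429 coding bases and Hbb-bs and Hbb-bt at 1 of 444. The 45 coding bases around each difference are shown because they are all that separates the copies inside the coding sequence, with the differing base in capitals (coding bases 358 to 402 for Hba and 394 to 438 for Hbb, counted from the start codon).
Hba-a1: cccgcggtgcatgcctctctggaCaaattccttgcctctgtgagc
Hba-a2: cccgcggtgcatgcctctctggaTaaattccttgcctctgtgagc
Hbb-bs: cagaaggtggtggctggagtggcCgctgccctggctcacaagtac
Hbb-bt: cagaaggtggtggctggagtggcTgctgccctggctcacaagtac

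The split between copies therefore rests mostly on bases outside the coding sequence. Of the 673 stretches of 31 bases in the Hbb-bt transcript, 400 were also in Hbb-bs and 273 were found in no other gene. For the main Hbb-bs transcript, 198 of 598 were its own. The main Hba-a1 transcript had 191 of 669 to itself and that of Hba-a2 had 47 of 524, the rest being shared with each other or with the pseudogene Hba-ps4. The GENCODE model of Hbb-bt begins 73 bases before the RefSeq start and that of Hba-a1 begins 161 bases before it, against 0 for Hbb-bs and 3 for Hba-a2. The effect of those added bases on the estimates for each copy was not tested. In Alas2, 313 of 2007 stretches were shared, most of them with the overlapping gene Apex2, a DNA repair nuclease.

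The α copies were also identical in the promoter bases compared. The β copies were less alike in a comparison without gaps, in which an inserted or lost base would lower the match. Over the 247 bases that could be aligned before the RefSeq start, Hba-a1 and Hba-a2 were identical, whereas Hbb-bs and Hbb-bt shared 51% of 249 bases without gaps. The stretches below are from the RefSeq promoter windows of GRCm38.p6 and leave out bases that GENCODE places in an exon of the same gene. They are shown because the levels of Hba-a2 and Hbb-bs varied together across libraries while those of Hbb-bt did not follow them. A link between sequence and level was not tested. The stretches cover different parts, from -150 to -4 in Hba-a2, -83 to -1 in Hbb-bs and -150 to -74 in Hbb-bt. A motif missing from a printed stretch can therefore lie outside it. Capitals mark the CCAAT box, the CACCC box, the GATA-type motif GATAA and the TATA-type motif ATATAA, searched on either strand, where overlapping matches run together. The Hba-a2 stretch is chr11:32296342-32296488 (plus strand), the Hbb-bs stretch chr7:103827929-103828011 (minus strand) and the Hbb-bt stretch chr7:103813997-103814073 (minus strand).
Hba-a2: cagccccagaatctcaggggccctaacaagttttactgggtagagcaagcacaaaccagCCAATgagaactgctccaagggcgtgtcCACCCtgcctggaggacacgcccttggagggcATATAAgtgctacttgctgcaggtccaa
Hbb-bs: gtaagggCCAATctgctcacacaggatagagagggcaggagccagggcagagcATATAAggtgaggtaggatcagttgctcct
Hbb-bt: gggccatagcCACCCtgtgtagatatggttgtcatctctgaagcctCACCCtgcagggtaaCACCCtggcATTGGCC

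In the whole window of 250 bases, each of the 4 adult globin copies held all 4 motifs. The ATATAA match began 28 to 31 bases before the start in these copies (at -28 in Hba-a1 and -31 in Hba-a2). Hbb-bt held CACCC at 3 places and CCAAT at 3, compared with 1 of each in Hbb-bs. On the plus strand, CCAAT began at -75 in Hbb-bt and -76 in Hbb-bs. A CACCC match began at -89 in Hbb-bt and -90 in Hbb-bs. Alas2 held GATAA on the opposite strand and CACCC, with neither of the other motifs in this window. Among all 32851 promoter windows, 33.8% held the CCAAT box, 52% the CACCC box, 22.6% the motif GATAA and 9.1% the motif ATATAA. A match describes letters only.

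Library totals were between 26612431 and 41059082 estimated counts. Zbtb38 was between 49.6 and 63.5 TPM (a level per transcript length, scaled to the same sum in each library) in the 4 controls. It was between 17.5 and 46.1 TPM in the 6 KO libraries, which all lay below the controls. The paper reports a complete loss of transcripts within the Cre-deleted exon in KO. The level here sums all Zbtb38 transcripts, so it can include bases outside that exon. KO replicate 2 had the 46.1 TPM, near the 49.6 TPM of the HET libraries. In counts scaled to library size (CPM), KO replicate 2 was at 50.3, against 117 and 106 in the HET libraries. The log2 difference of Zbtb38 between KO and controls was -2.08 (SE 0.232, edgeR adjusted p = 0.0104). That call was lost in limma on log2(TPM + 1), at -1.16 (adjusted p = 0.686), and with log2(TPM + 0.1), at -1.19 (adjusted p = 0.695). KO replicate 6 stood furthest from the rest, with a median correlation of 0.954 to the other libraries against 0.971 to 0.983 for the others. The sort label fitted its markers, as the 12 germinal center B cell markers, led by Cd79b, Cd79a and Ms4a1, summed to between 7572 and 9428 TPM with none at 0.

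The adult globins were minor transcripts. Together they took between 0.00341% and 0.00948% of the estimated counts in a library. By mean TPM, Hbb-bt stood at the 93.1 percentile of all genes, Hbb-bs at 78.5, Hba-a2 at 77.5, Hba-a1 at 69.6 and Alas2 at 40.8. In bulk RNA, fewer cells of a type and less RNA per cell cannot be told apart.

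The α-globins varied widely between libraries, and the lowest were not WT but HET. Hba-a1 was at 5.16 and 15.7 TPM in WT, 3.07 and 0.965 TPM in HET, and 4.48, 13.8, 24.6, 26.5, 11.5 and 28.8 TPM in KO replicates 1 to 6. Its KO libraries overlapped with WT and lay above both HET libraries. Hba-a2 was at 12.6 and 27.7 TPM in WT, 3.62 and 3.23 TPM in HET, and 19.6, 37.2, 35.1, 55.8, 19.8 and 51.1 TPM in KO. As for Hba-a1, KO replicates 1 and 5 were the lowest of their genotype, and both were below WT replicate 2. Hba-a1 made up between 18.6% and 45.9% of Hba, and the genotypes overlapped in this share.

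Summed Hba was 30.6 ± 18.1 TPM in WT (SD, n = 2), 5.44 ± 1.77 TPM in HET (SD, n = 2) and 54.7 ± 24.2 TPM in KO (SD, n = 6). Behind these levels were 204 and 333 estimated counts in WT, 60 and 30 in HET, and between 223 and 903 in KO. The highest library held 19.6 times the TPM of the lowest. The order of the means was therefore KO, WT, HET, and the neighbors KO and WT did not separate.

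Hbb-bs, a β-globin, behaved like the α-globins and not like its own copy. It was at 14.6 and 41.7 TPM in WT, 7.55 and 1.51 TPM in HET, and 14.8, 35.9, 44.3, 54.6, 28.9 and 44.3 TPM in KO. Again HET was lowest, and KO replicate 1 was close to WT replicate 1. Hba was between 0.886 and 2.78 times Hbb-bs in every library, and between 1.08 and 1.8 times in the 6 KO libraries, with the extremes in the HET pair where counts were few.

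Hbb-bt was the most abundant member and the steadiest. It was at 100.2 and 101.5 TPM in WT, 99.8 and 97.8 TPM in HET, and 177, 96.4, 152, 108.5, 115 and 126.6 TPM in KO. The 4 controls sat within a few TPM of each other, while 1 KO library was below all of them and 5 were above. Its highest level was 1.84 times its lowest, compared with 36.2 times for Hbb-bs and 29.8 times for Hba-a1. Hbb-bt made up 87.3% and 70.9% of Hbb in WT, 93% and 98.5% in HET, and between 66.5% and 92.3% in KO, so summed Hbb mostly followed Hbb-bt.

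**Figure D1:**
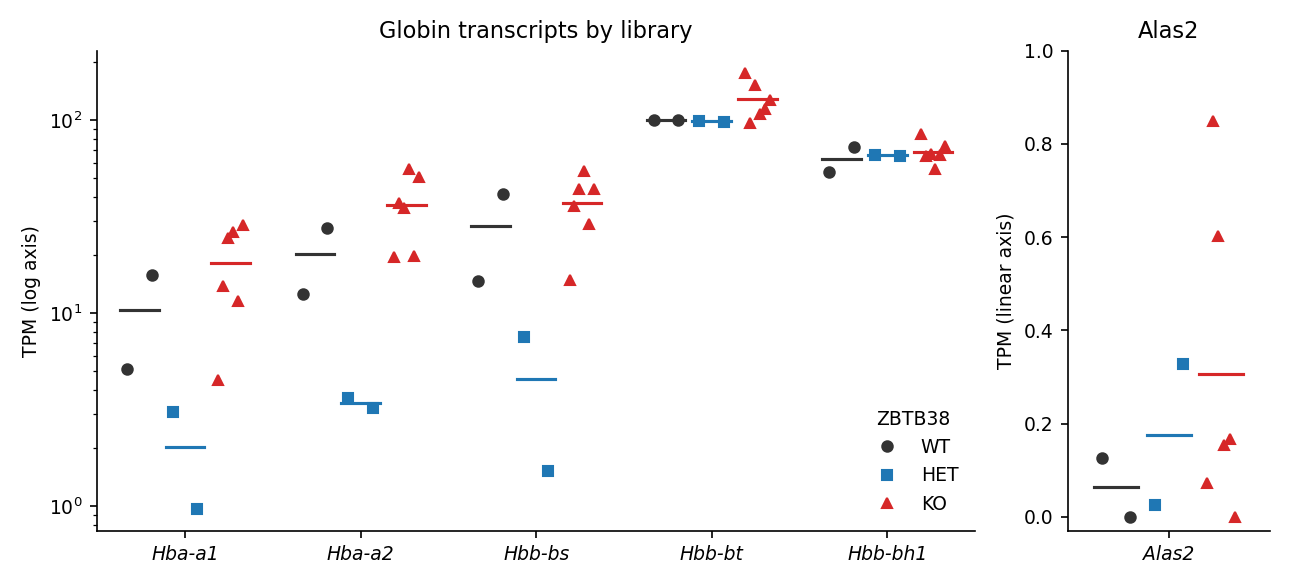
Level of each globin in TPM on a log axis, and of Alas2 in TPM on a linear axis, with 1 point per library and a bar at the mean of the genotype (2 WT, 2 HET, 6 KO). Hba-a1, Hba-a2 and Hbb-bs are lowest in the HET pair, whereas Hbb-bt stays between 96.4 and 177 TPM and embryonic Hbb-bh1 between 53.9 and 85.2 TPM.

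Alas2 was close to absent. It had 7 and 0 estimated counts in WT, 1 and 12 in HET, and 3, 30, 25, 6, 7 and 0 in KO, or at most 0.849 TPM. A count of 0 allows up to 3 counts at this depth, for counting error only. The genotypes overlapped, and HET replicate 2, which had the least Hba, had the most Alas2 of the controls. Apex2, which shares sequence with Alas2, was between 10.8 and 30.7 TPM in all libraries, and without a stated strand reads of the overlap cannot be told apart. Hba, Hbb and Alas2 all passed the filter on low counts in the fit of all 10 libraries, and Alas2 did not in the fit of KO against controls. The housekeeping gene Alas1 was between 12.5 and 33.9 TPM.

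Against both controls together, mean Hba was 16.1 CPM (counts scaled to library size with TMM normalization) in KO and 4.85 CPM in controls, a difference of 1.78 in mean log2(CPM + 1). Against WT alone the difference was 0.88, and against HET alone it was 2.68. Without KO replicate 6 it was 1.61. The single copies gave 1.4 for Hba-a1, 1.63 for Hba-a2, 1.48 for Hbb-bs and 0.46 for Hbb-bt, and against WT alone these were 0.73, 0.84, 0.51 and 0.45. Summed Hbb was 61.6 CPM in KO and 39 CPM in controls, a difference of 0.61, or 0.57 without KO replicate 6. Alas2 was 0.405 CPM in KO and 0.159 CPM in controls. In 0 of the 5 members did all KO libraries lie above all controls, which held for 0.525% of the 13345 genes tested in that comparison. Of the 6 KO libraries, 4 were above both WT libraries for Hba, and 3 were for Hbb-bs.

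Hba relative to summed Hbb was also highest in KO and lowest in HET by mean. Hba was 15.5% and 30.3% of Hbb in WT, 6.23% and 4.22% in HET, and between 12.6% and 50.5% in KO, by TPM. Most of Hbb was the steadier Hbb-bt. Relative to Hbb-bs alone the order differed, with mean ratios of 1.13 in WT, 1.83 in HET, where counts were few, and 1.47 in KO. The mean log2 ratio of Hba to Hbb was 1.52 higher in KO than in controls, and 0.48 higher than in WT alone, and no test is given because the members were chosen on this contrast.

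The comparison of HET with WT asks whether globin levels differed between the control genotypes. It was not itself the contrast that chose the members, but both HET libraries were among the controls there. Low HET values therefore favored the choice. For Hba, KO was 0.88 above WT and 2.68 above HET in mean log2(CPM + 1). The p-values of HET against WT are thus no independent support. Hba was lower in HET, with a fitted log2 difference of -2.44 (SE 0.646) that had an unadjusted edgeR p of 0.00276 but an edgeR adjusted p of 0.71 over 14352 genes. DESeq2 gave the same difference an adjusted p of 0.033, so the call depended on the test. By CPM, both HET libraries were below both WT libraries for Hba-a1, Hba-a2 and Hbb-bs, 3 of the 5 members, as they were for 24.5% of all genes tested. None of the members passed an edgeR adjusted p of 0.1, which 0.00697% of genes did, and only Hba passed an unadjusted p of 0.05 among the 3 fitted values, as 6.41% of genes did.

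With each copy fitted on its own, the log2 difference between HET and WT was -2.33 (SE 0.898) for Hba-a1, -2.53 (SE 0.614) for Hba-a2 and -2.59 (SE 0.763) for Hbb-bs, with edgeR adjusted p between 0.709 and 0.716. For Hbb-bt it was -0.02 (SE 0.366). Summed Hbb differed by -0.27 (SE 0.305, edgeR adjusted p = 0.963). Alas2 differed by 1.37 (SE 2.04), opposite in sign to the globins, and without HET replicate 2 its sign turned, at -1.34.

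Most macrophage and T cell markers were lower in HET than in WT, as were Hba-a1, Hba-a2 and Hbb-bs but not Hbb-bt. Most neutrophil markers were not lower. Of the 14 markers of red pulp and tingible body macrophages, which engulf red cells and dying B cells, 13 were lower in HET than in WT. Of these, 6 had an unadjusted edgeR p under 0.05, as 6.41% of all genes did in either direction. None had an edgeR adjusted p under 0.1, as 0.00697% of genes did. The median log2 difference was -1.89 beside -0.01 over all genes. Of 10 T cell markers, 9 were lower, 6 of them at an unadjusted p under 0.05 (beside the same 6.41%), with a median of -1.91. The macrophage list summed to 299 and 203 TPM in WT, 69 and 92.4 TPM in HET, and between 61.5 and 326 TPM in KO. It was led by C1qb, C1qc and Cd68, with none of the 14 markers at 0 in the WT libraries. The T cell list summed to 250 and 245 TPM in WT, 145 and 153 TPM in HET, and between 131 and 191 TPM in KO, most of it from Lck, Trac and Cd3g. Lck alone was between 116 and 124 TPM in WT and between 120 and 122 TPM in HET, a log2 difference of 0.03 (SE 0.216). Trac and Cd3g differed by -2.6 (SE 0.567) and -2.64 (SE 0.639). Of 6 neutrophil markers tested, 5 had a difference above 0 between HET and WT (median 0.94). The neutrophil list summed to 18.4 and 0.272 TPM in WT, and to 0.609 and 35.2 TPM in HET. Of 6 platelet markers tested, 2 had a difference above 0 (median -0.44). Among them was Itgb3, the leading platelet marker (log2 difference 1.23, SE 0.375, edgeR adjusted p = 0.71). Of 8 plasma cell markers, 0 had a difference above 0 (median -0.47). The part of any of these in the globin difference was not tested. KO replicates 3, 4 and 6 had 59.7, 82.3 and 79.9 TPM of Hba with 225, 326 and 260 TPM of macrophage markers. KO replicates 1, 2 and 5 had 24.1, 51 and 31.3 TPM of Hba with 109, 61.5 and 164 TPM of macrophage markers. WT replicate 1 had 17.8 TPM of Hba with 299 TPM of macrophage markers, and WT replicate 2 had 43.4 TPM with 203 TPM.

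**Figure D2:**
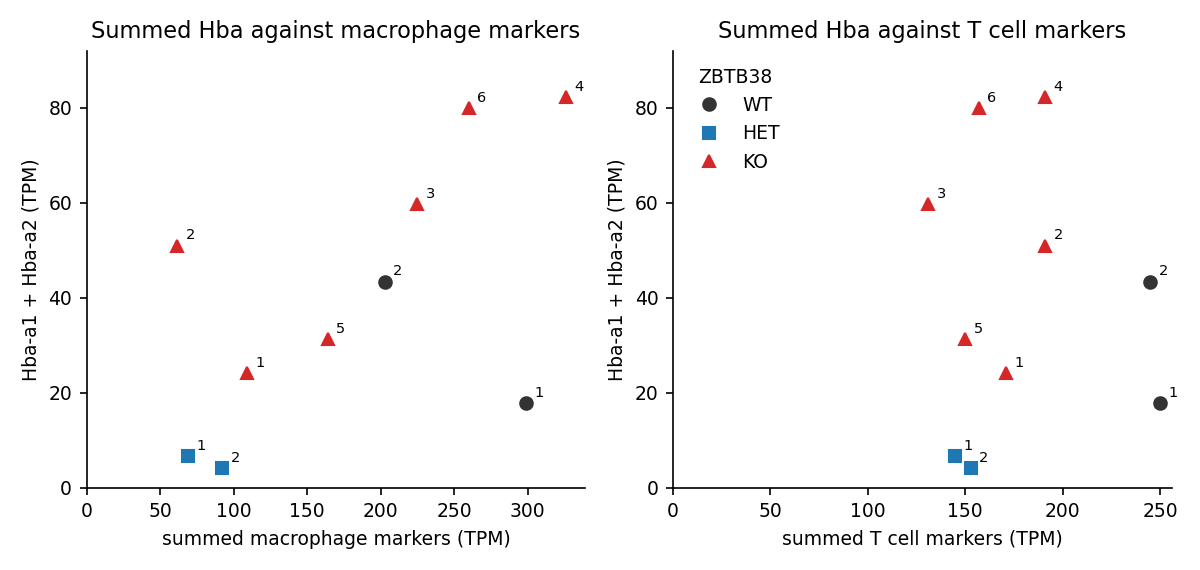
Summed Hba in TPM against the summed TPM of macrophage markers and of T cell markers, with 1 numbered point per library. The HET pair is low on the Hba axis (6.69 and 4.19 TPM) and on the macrophage axis, and KO replicate 2 has 51 TPM of Hba at 61.5 TPM of macrophage markers.

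Within the 6 KO libraries, which share a genotype, summed Hbb did not track summed Hba. Their Pearson r was -0.02 and Spearman rho -0.26 on log2(CPM + 1), with exact two-sided permutation p of 0.981 and 0.658. Without KO replicates 1 and 2, the farthest from the median, r was 0.56. Split by copy, Hba tracked Hbb-bs with r = 0.96 and rho = 1 (exact permutation p = 0.00278 for both, the smallest that 6 libraries allow, and 0.00833 adjusted over 3 relations), and r was 0.98 without KO replicates 1 and 6. Against Hbb-bt it gave r = -0.23 and rho = -0.26 (exact permutation p = 0.658 for both). These single-copy relations were chosen after the values were seen, so their p-values are no independent support, and the level of each copy comes from the same split of shared reads.

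**Figure D3:**
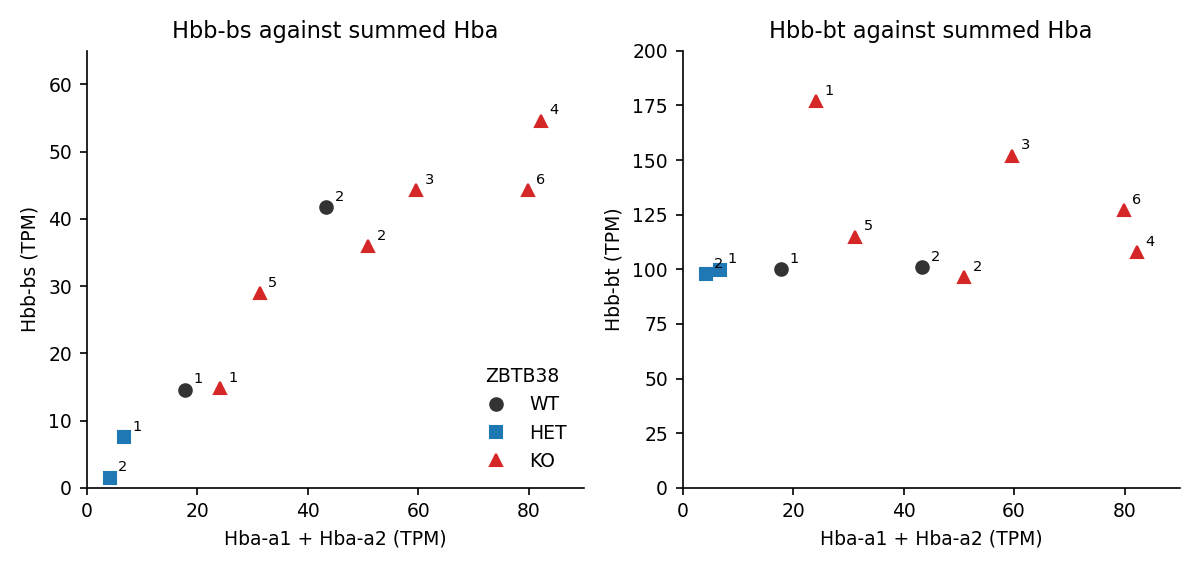
Level of Hbb-bs (left) and Hbb-bt (right) in TPM against summed Hba in TPM, with 1 point per library marked by replicate number. Hbb-bs is higher where Hba is higher, from 1.51 TPM in HET replicate 2 to 54.6 TPM in KO replicate 4, while Hbb-bt is highest in KO replicate 1, at 177 TPM, where Hba is 24.1 TPM.

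The embryonic β-like globin Hbb-bh1, made by primitive red cells of the yolk sac, was higher than Hba in every control and shared none of its 583 stretches of 31 bases with another gene. It was at 53.9 and 72.9 TPM in WT, 66 and 65.5 TPM in HET, and 85.2, 65.2, 66.6, 55.8, 66.2 and 73.8 TPM in KO. The genotypes overlapped throughout, and its log2 difference between HET and WT was 0.06 (SE 0.339, edgeR adjusted p = 0.999). In KO it followed Hbb-bt, with r = 0.9 and rho = 0.89 (exact permutation p = 0.0222 and 0.0333, adjusted 0.0333 and 0.05, a relation also chosen after the values were seen), and r was 0.81 without KO replicates 1 and 2. The other embryonic and minor globins were at or near 0. Hba-x and Hbq1a had no count in any library, Hbb-y had counts in 1 library, Hbq1b in 2 and Hbb-bh2 in 4, none above 1.46 TPM.

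None of the other 10 planned relations of Hbb within KO passed 0.1 after adjustment over the 11. The nearest were the summed embryonic and minor globins (r = 0.84, rho = 0.89) and the erythroid membrane list (r = -0.84, rho = -0.71), each with an adjusted permutation p of 0.214 for r, and the late erythroid cytosol list (r = 0.83, rho = 0.77, adjusted p = 0.265). For macrophage markers r was 0.38 and rho 0.14, for T cell markers 0.2 and -0.09, and for the library total 0.59 and 0.37. Alas2 gave r = -0.45 and rho = -0.49, and the erythroid transcription factors 0.25 and 0.37. Platelet markers gave -0.56 and -0.49 and neutrophil markers -0.61 and -0.66. Their adjusted permutation p for r were between 0.448 and 0.843. All of these relations use summed Hbb. Within KO it followed Hbb-bt (r = 0.98), but not Hbb-bs (r = -0.19) or Hba (r = -0.02). The relation of Hba or Hbb-bs to these lists was not tested.

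Several defining genes of the red cell membrane and cytosol had no counts, while others on the same lists were expressed. Slc4a1 (the band 3 anion exchanger), Kel, Aqp1, Add2, Car1 and Tspo2 had 0 counts in all 10 libraries. Epb42, a membrane skeleton protein, reached 0.821 TPM. Bpgm, the bisphosphoglycerate mutase of red cells, was between 31.1 and 63.8 TPM, and Car2, a carbonic anhydrase, between 4.57 and 16 TPM, with neither at 0 in any library. Other members of the 18-gene membrane list were well expressed, led by Epb41 (protein 4.1), Tfrc (the transferrin receptor) and Gypc.

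The erythroid regulators showed the same mixture. Klf1 was at most 0.473 TPM and Gata1 at most 0.862 TPM, and Tal1 had counts in 1 library. Lmo2, Ldb1 and Zbtb7a, which B cells also express, led the list of 12 regulators, with Lmo2 between 103 and 185 TPM. Zfpm1, the GATA1 partner FOG1, had a log2 difference between HET and WT of -2.09 (SE 0.686, edgeR adjusted p = 0.71). Bcl11a, a repressor of embryonic and fetal β-like globins, was between 38.7 and 49.6 TPM.

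Over the 6 erythroid, heme and iron lists, 0 of 55 genes tested passed an edgeR adjusted p of 0.1 between WT and KO, as 0.00704% of all genes did, and 1 passed an unadjusted p of 0.05 (1.82%, with 2.18% of all genes). That gene was Zfpm1, lower in KO by a log2 difference of -1.13. Between KO and both controls, 0 of 52 passed the adjusted threshold, which 0.00749% of genes passed, and 4 passed the unadjusted one (7.69%, with 6.3% of all genes). DESeq2 also called 0 in both comparisons. The median log2 difference of these lists between KO and controls was 0.07, beside 0.02 over all genes. Between HET and WT, 0 of 55 passed with adjustment and 4 without (7.27%, with 6.41% of all genes). Epb41 passed in the fit of only the WT and HET libraries, with a log2 difference of 0.73 (edgeR adjusted p = 0.0325).

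The 4 genes with an unadjusted edgeR p under 0.05 between KO and controls did not move one way. Ftl1, the ferritin light chain, was higher in KO with a log2 difference of 0.34 (SE 0.148). Epb41 had a difference of -0.52 (SE 0.204), Abcb10, a mitochondrial transporter of the heme pathway, one of -0.51 (SE 0.18), and Ireb2, an iron-responsive RNA-binding protein, one of -0.39 (SE 0.151). Each of the 4 had an edgeR adjusted p of 0.744.

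The enzymes of heme synthesis were expressed in every library. All 11 genes were tested, with Alad and Urod among the most abundant, and 6 had a difference above 0 between KO and controls, none past adjustment, with a median log2 difference of 0. The sum of the list was between 313 and 464 TPM. Of the 11 genes of heme breakdown and iron handling, 9 had a difference above 0 (median 0.23), and Fth1, Ftl1 and Blvrb led the list. Hmox1, the inducible heme oxygenase, was between 16.7 and 39.8 TPM in controls and between 18.9 and 81.9 TPM in KO, a log2 difference of 0.68 (SE 0.418, edgeR adjusted p = 0.745). Among late erythroid genes, Prdx2, Cat and Mkrn1 were highest, and 5 of 10 tested had a difference above 0, with a median of 0.02.

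**Figure D4:**
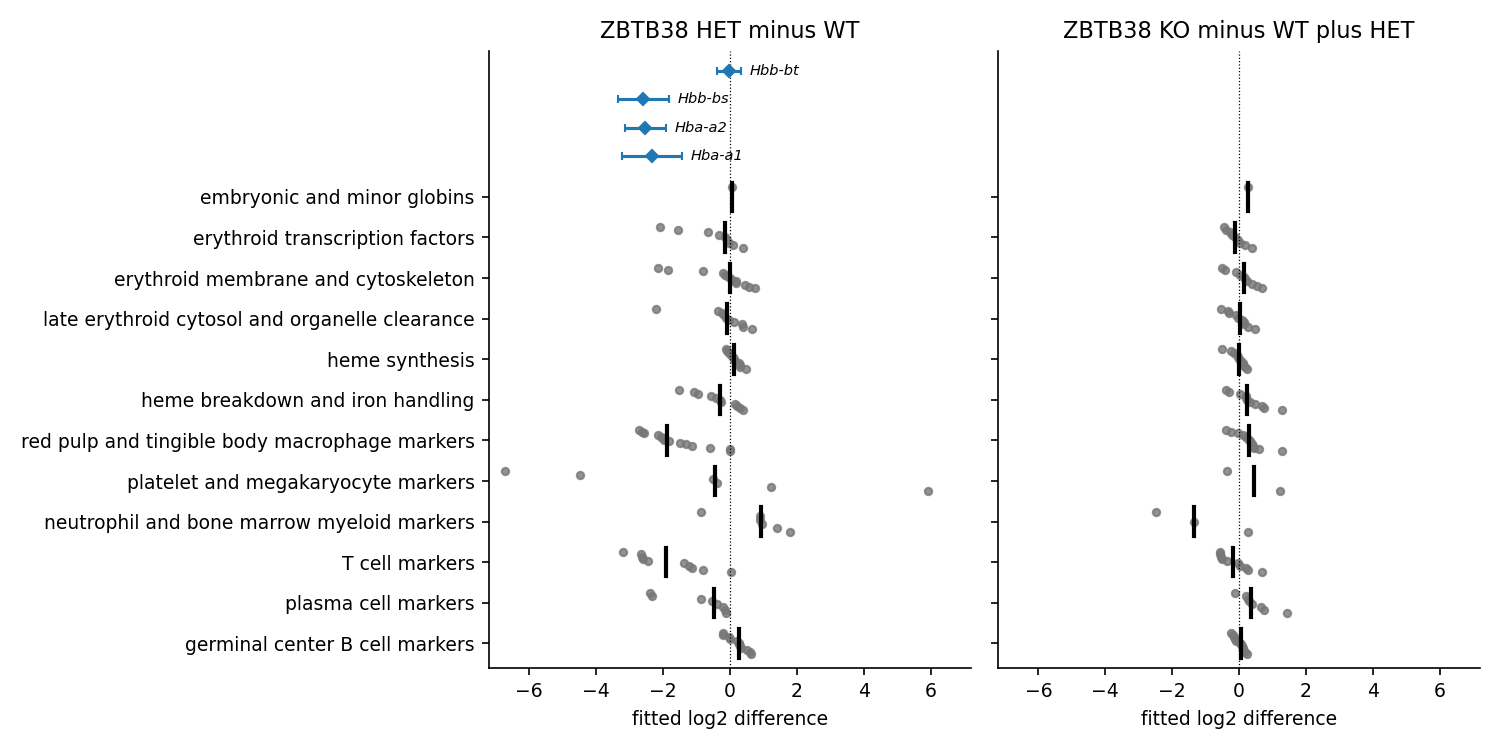
Fitted log2 difference of each tested gene in the fixed lists (points, with the list's median as a black bar) between HET and WT (left) and between KO and controls (right), with the 4 globin copies above the left panel as diamonds with 1 SE. Hba-a1, Hba-a2 and Hbb-bs lie between -2.33 and -2.59, next to medians of -1.89 for macrophage and -1.91 for T cell markers, while the medians of the erythroid, heme and iron lists lie between -0.3 and 0.12 there.

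Platelet and neutrophil markers were low next to the macrophage and T cell sums given above. Of 10 platelet and megakaryocyte markers, Tubb1, Treml1 and Gp1bb had no count in any library, and the list summed to between 4.66 and 18.2 TPM, led by Itgb3, with Pf4 and Gp9 next. The neutrophil list summed to between 0.272 and 35.2 TPM, with S100a9, S100a8 and Ngp highest. Its highest values were in HET replicate 2 (35.2 TPM) and WT replicate 1 (18.4 TPM), and HET replicate 2 was the library with the least globin. Between KO and controls, 11 of 14 macrophage markers (median 0.31) and 4 of 10 T cell markers (median -0.19) had a difference above 0. In either list 0 had an unadjusted edgeR p under 0.05, which 6.3% of all genes had. Of 8 plasma cell markers, led by Jchain, Mzb1 and Slpi, 7 had a difference above 0 (median 0.34), with Mzb1 at 0.29 and Slpi at 0.4, each with an edgeR adjusted p of 0.744. Their part in the globin levels was not tested.

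Among 14349 genes ranked by Pearson r on log2(CPM + 1), the 10 whose pattern over the 10 libraries was most like that of summed Hbb were Atp5l (r = 0.98), Pak1ip1, Pop7 and H3f3b (0.96 each), Vamp8 and Dynlt1f (0.95 each), and Timm10, Mrpl41, Arpc5 and Cyba (0.94 each). Atp5l, an ATP synthase subunit, was between 407 and 561 TPM. The single copies gave 0.93 for Hbb-bt and 0.58 for Hbb-bs, and Hbb-bh1 gave 0.76. These are descriptions over libraries that share depth and normalization, and the rank was taken from the same values.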

How the data were processed

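Per the labels and the study's methods, total RNA of sorted germinal center B cells was made into libraries with SMART-Seq v4 and Nextera reagents, sequenced in pairs and quantified by the authors with Salmon 0.9.1 against Gencode transcripts. The authors deposited an estimated count per transcript, which is not normalized and need not be whole (46.8% of values were not). The authors also deposited TPM, which Salmon scales by effective transcript length and to the same sum in every library. Strand was not given in the sources used here.

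Both values were summed per gene symbol over 64019 transcripts, and counts were rounded. The Hba and Hbb copies were summed before the fits. edgeR 4.0.16 (quasi-likelihood test, TMM, filterByExpr, Benjamini-Hochberg adjustment, threshold 0.1) compared WT with HET on all 10 libraries, and KO with WT and with both controls on their own libraries. CPM uses TMM sizes and log2(CPM + 1). Alternatives used DESeq2 1.42.0, limma 3.58.1, other filters, each library left out, and a replicate block. Of 144 listed genes, 2 were not used here because no symbol matched. Gencode vM21 of GRCm38, not the version used for quantification, gave positions and transcripts.

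The members and gene lists were chosen with earlier results of these data known. The planned test of the ratio of Hba to Hbb between KO and controls is not given because that contrast chose the members. Genes are named if they are members, Zbtb38, past a threshold in a list, among the 3 highest of a list by TPM, or among the 10 most like Hbb. A few genes that this rule or the marker lists would name are not reported here. Others were named after their values were seen, mainly to state which defining markers were at 0. On simulated counts, edgeR recovered 28% of genes changed 2-fold and 82% of those changed 4-fold for HET against WT (14207 genes), 53% and 91% for KO against WT (13996 genes), and 73% and 96% for KO against controls (13211 genes). The changed genes were all drawn from above a set mean level, and many were changed at once. These shares therefore need not hold for low members such as Alas2, or where few genes change. Intervals of counts cover counting error only.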

Additional observations from a re-analysis of the deposited data

How the results depend on the processing

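The lower Hba in HET kept its sign in every alternative, with each library left out in turn giving -2.93 to -1.7, but its adjusted p passed 0.1 in DESeq2 only (log2 difference -2.44, adjusted p = 0.033). DESeq2 called 124 genes in place of 1. Fitting only the WT and HET libraries called 523 and leaving out KO replicate 6 called 16. In these 2 edgeR fits Hba stayed above the threshold, with adjusted p of 0.101 and 0.264. The replicate numbers were read as sharing only a number. Between same-numbered libraries, the deviations of genes from their genotype mean correlated by only -0.01 to 0.13. The fit with the replicate block gave -2.31 for Hba (edgeR adjusted p = 0.208) and 66 calls. Between KO and controls the Zbtb38 call was lost with that block (-1.86, edgeR adjusted p = 0.601). Alas2 turned from 1.37 to -1.34 without HET replicate 2 (range -1.34 to 5.82), and it could not be fitted under the filter of 10 counts or with only WT and HET. Hbb stayed between -0.36 and -0.17.

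Hba in KO against controls was 1.78 and moved to 0.88 with WT and 2.68 with HET as the only controls (1.4 to 2.26 with each library left out, 1.23 without KO replicate 6 and HET replicate 2). The log2 ratio of Hba to Hbb moved from 1.52 to 0.48 with WT only (1.08 to 2.02 with each left out). Hbb moved from 0.61 to 1.48 with Hbb-bs alone (0.51 to 0.71 with each left out). Alas2 moved from 0.24 to 0.79 with log2(CPM + 0.1) (0.12 to 0.35 with each left out). The correlation of Hbb with Hba within KO was -0.02, between -0.25 and 0.61 with each KO library left out, and 0.96 for Hbb-bs alone. Calls in the erythroid lists were 0 in every alternative for both KO comparisons. For these changes the cause was not tested. Counts were low for Alas2 in all libraries and for Hba and Hbb-bs in HET.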

Other observations

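Ranked by likeness to summed Hba in place of summed Hbb, a choice made after the values were seen, Pcolce2 came first (Pearson r = 0.94 on log2(CPM + 1) over 10 libraries), at only 0.507 to 1.98 CPM. The immunoglobulin κ variable genes Igkv2-137 and Igkv1-135 were also among the first 10, with r = 0.91 each, with Igkv1-135 between 157 and 1089 TPM. Hbb-bs gave r = 0.98 with Hba over the same libraries, Hbb-bt 0.34 and Hbb-bh1 0.18.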
